A study of Caenorhabditis elegans with 2 samples.

Results

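The summits described here are places of eGFP-NHR-28 binding that lay more than 300 and up to 1000 bp upstream of the start of 1 protein-coding gene and in the promoter of no other. They numbered 1439, which was 16.5% of all summits of the optimal set, the regions the authors kept after comparing both replicates. A summit is the point in a region that the deposited list marks as its peak. It was kept when the promoter window of exactly 1 gene held it and the closest start of that gene lay in that range downstream of it. The window ran 1000 bp up and 200 bp down from each annotated transcription start site (TSS). Position alone chose these summits, and no signal value or motif took part. Of the other summits, 2289 were in the core of single-gene promoters, from 300 bp upstream to 200 bp downstream, 872 were in promoters of several genes, 45 were in other single-gene positions and 4100 were outside promoters.

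The study was a chromatin immunoprecipitation with sequencing (ChIP-seq) of whole Caenorhabditis elegans larvae at the L4 stage, with 2 biological replicates in 1 group. Both came from strain OP317, with the genotype unc-119(ed3) III; wgIs317, and both sexes were pooled. Animals of this strain carry the unc-119(ed3) allele and, on the integrated transgene, the tagged receptor. Because whole larvae were used, a summit cannot be assigned to a tissue. No sample without the tagged receptor was analysed here, so the values are levels at places in the genome and not differences between conditions, and no test across groups was possible. Neither nhr-28 itself nor unc-119 had a summit in its promoter.

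NHR-28 belongs to the nuclear hormone receptors, zinc-finger transcription factors that in many animals sense lipids and other small molecules and that are unusually numerous in nematodes. Nuclear receptors typically recognise a short half-site in DNA, alone or as a repeat. In the worm intestine, GATA factors such as ELT-2 bind sites with the core TGATAA and are known to drive many intestinal genes. Many worm messages receive a spliced leader, which removes the original 5′ end, so an annotated start can lie downstream of the place where transcription begins.

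The sequences around 7 upstream summits show what such places held. Each holds the summit and 50 bases on either side, read 5′ to 3′ on the strand of its gene from the RefSeq genome of build WBcel235 (ce11). Capitals mark any of 6 motifs, found on either strand: the GATA site TGATAA, the GA repeat GAGAGAGA, the GC box CCGCCC, the E-box CACGTG, the forkhead site GTAAACA and the nuclear receptor half-site AGGTCA. The first is the highest summit with a GATA site, at daf-22, the gene of a peroxisomal thiolase of fatty acid and ascaroside metabolism (chrII:12425955-12426055, minus strand). The second is the highest of all, at the nuclear receptor gene nhr-237 (chrV:1627387-1627487, minus strand), and it holds none of the 6.
daf-22: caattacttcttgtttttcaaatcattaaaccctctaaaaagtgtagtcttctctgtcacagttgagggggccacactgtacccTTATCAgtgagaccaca
nhr-237: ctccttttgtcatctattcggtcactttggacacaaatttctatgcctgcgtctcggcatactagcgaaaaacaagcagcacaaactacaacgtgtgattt

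The next sequences are the highest summits with each of the other motifs searched most closely. They lay at cts-1, the citrate synthase gene (chrIII:10217020-10217120, minus strand), taap-1 (chrII:8484656-8484756, minus strand), F21C10.10 (chrV:9095754-9095854, plus strand) and bbln-1, a coiled-coil protein gene (chrX:3153280-3153380, minus strand). The last is the highest summit between 900 and 1000 bp on the chromosomes from which sequence is shown, 994 bp upstream of the nuclear receptor gene nhr-40 (chrX:2592959-2593059, plus strand), near the outer limit, and it holds none of the 6.
cts-1: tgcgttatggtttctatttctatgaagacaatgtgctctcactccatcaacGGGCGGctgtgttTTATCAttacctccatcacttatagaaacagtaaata
taap-1: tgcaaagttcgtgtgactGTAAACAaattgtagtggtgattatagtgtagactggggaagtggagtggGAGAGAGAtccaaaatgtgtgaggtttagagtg
F21C10.10: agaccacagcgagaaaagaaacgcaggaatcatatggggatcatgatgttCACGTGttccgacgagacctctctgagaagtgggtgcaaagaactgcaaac
bbln-1: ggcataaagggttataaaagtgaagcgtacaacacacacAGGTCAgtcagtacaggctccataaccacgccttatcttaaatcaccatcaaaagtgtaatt
nhr-40: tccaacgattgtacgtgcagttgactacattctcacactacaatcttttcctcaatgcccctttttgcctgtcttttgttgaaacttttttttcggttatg

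The first question was how the summits were spread over the upstream sequence. Their median distance from the closest TSS was 589 bp, with quartiles of 410 and 789.5 bp. Because neighbouring genes limit how much sequence can belong to 1 promoter, counts were divided by the 12.8 Mb of genome whose every base meets the positional rule. There were 112.1 upstream summits per Mb, and 111 per Mb in each replicate's own list, shortened to as many regions of highest signal as the optimal set has. The 300 bp next to the TSS held 330.0 per Mb (327 in replicate 1 and 320.4 in replicate 2), and the whole genome held 87.2 per Mb. Upstream density was thus 0.34 times that of the 300 bp next to the TSS, with 0.339 in replicate 1 and 0.348 in replicate 2.

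Upstream density was highest in the 200 bp nearest the core. Density was 176 per Mb between 300 and 400 bp (164 in replicate 1 and 192 in replicate 2) and 120.1 per Mb between 400 and 500 bp (121 and 119.03 in replicates 1 and 2). Beyond 500 bp it was between 91.5 and 105 per Mb in each 100 bp, with replicate values between 86.9 and 105. Between 900 and 1000 bp it was 94.2 per Mb, with 91.99 in replicate 1 and 86.9 in replicate 2, which lay close to the whole-genome 87.2.

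**Figure D1:**
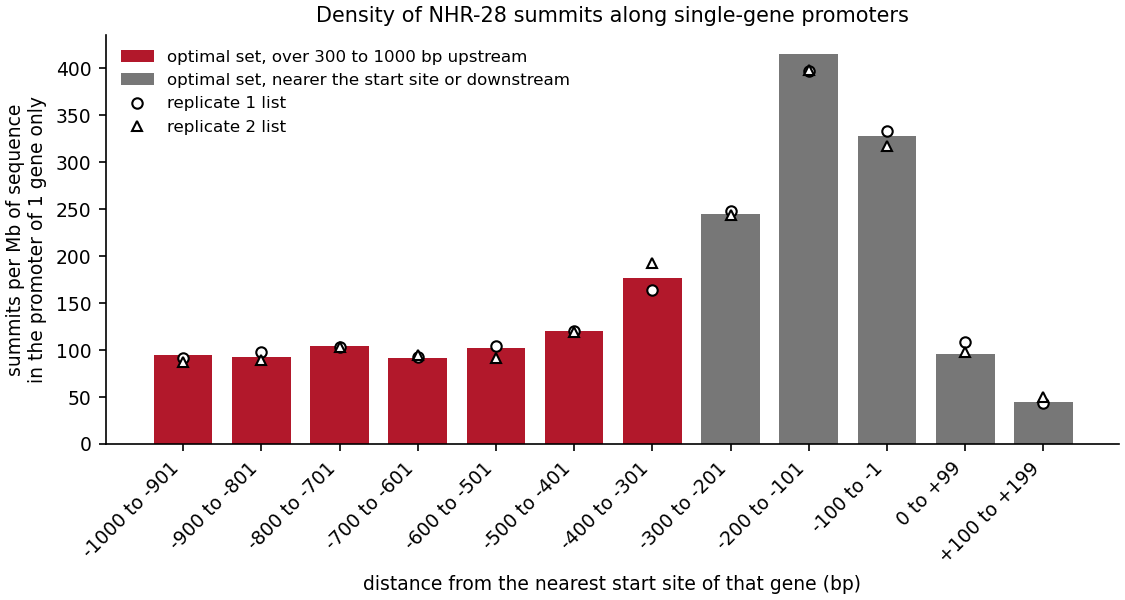
Summits per Mb of sequence in the promoter of 1 gene only, in 100 bp steps from the nearest TSS of that gene (horizontal axis, bp, negative upstream), with bars for the optimal set and open symbols for each replicate's own list. Density was 176 per Mb between 300 and 400 bp upstream and 94.2 per Mb between 900 and 1000 bp, and the highest bar, between 100 and 200 bp, stood at 415 per Mb.

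The 1439 summits belonged to 1359 genes, 6.8% of the 19973 protein-coding genes and 7.48% of the 18174 genes with at least 1 base that could hold such a summit. Of these genes, 1287 had 1 upstream summit, 66 had 2, 4 had 3 and 2 had 4. The genes with 3 were din-1, a corepressor partner of the nuclear receptor DAF-12, the kinase gene mnk-1, the spectraplakin gene vab-10 and the ABC transporter gene wht-7, and those with 4 were egl-27, of the MTA family, and the MAP kinase phosphatase gene vhp-1. These 6 genes had between 2 and 14 annotated TSSs. Each summit had a closest TSS of its own at din-1, vab-10 and vhp-1, while the 3 of wht-7 shared 1, the 3 of mnk-1 had 2 and the 4 of egl-27 had 3. At wht-7, mnk-1 and egl-27 some of the summits lay in regions that overlap one another. Summits of mnk-1 shared a replicate 1 value (60.1), as did summits of wht-7 (63.2). The number of summits there can thus count 1 bound stretch more than once. Of all genes with an upstream summit, 44.3% had more than 1 annotated TSS, against 26.3% of all protein-coding genes. A gene with more TSSs has more sequence that can hold a summit, and the part of this in the difference was not tested.

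For 1096 genes (80.6%) no other kind of promoter summit was found besides the upstream summit or summits. A single-gene core summit was also present in 226 genes (16.6%), and in 11.04% of all protein-coding genes. Within those 226 genes the upstream summit had the higher signal in 101 (44.7%), with 101 of 221 in replicate 1 and 109 of 217 in replicate 2. At taap-1 the signal was 601 at 835 bp upstream, against 455 in the core at 107 bp. At the glutathione S-transferase gene gst-5 it was 381 at 771 bp, against 323 in the core at 83 bp, but in replicate 2 the order turned, with 155 upstream and 158 in the core. At prx-6, a peroxisome biogenesis gene, the core was higher, with 169 at 983 bp, against 200.03 in the core at 58 bp, and replicates 1 and 2 had the same order as the pooled values at taap-1 and prx-6. These examples were chosen after their values were seen.

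Signal is the value the authors' peak caller gave each region, whose scale no source used here states, so it ranks regions within a list only. The median signal of upstream summits was 71.9 (quartiles 52.0 and 113, range 36.2 to 692), against 78.2 for core summits (quartiles 52.9 and 122, range 36.2 to 993). In replicate 1 the medians were 45.8 upstream and 49.4 in the core, and in replicate 2 they were 29.04 and 29.55. The ratio of the medians was 0.919 in the pooled data, and within each replicate's own list it was 0.927 in replicate 1 and 0.981 in replicate 2, so the shortfall in replicate 2 was small beside the spread of the summits. Among the 300 regions of highest signal in the optimal set were 45 upstream summits (3.13% of them), against 109 core summits (4.76%). Signal hardly changed with distance, with bin medians between 68.8 and 75.03.

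Both replicates found nearly all upstream summits. A region covered the summit in both replicate lists for 1403 of 1439 (97.5%), against 98.6% of core summits, but each replicate list also holds weak background regions. The optimal set was itself kept by comparing the replicates, so the agreement given here is in part set by that choice. It is not independent evidence of reproducibility. Among the regions of highest signal in both replicates, as many as the optimal set has, were 1138 upstream summits (79.1%), against 81.1% in the core. Across the 1403 summits the signals of the replicates had a Spearman correlation of 0.704 and a Pearson correlation of 0.705 on the log2 scale, given as a description, since all summits share the same 2 libraries. Replicate 1 was higher at 1232 of the 1403 (87.8%), with a median ratio of replicate 1 to replicate 2 of 1.57, against 1.61 over all optimal summits. The scale of each list is not known, so a higher value in replicate 1 does not measure stronger binding there. The replicates' own summits at these places were a median of 27 bp apart. Judged by its own summit, replicate 1 kept 1372 of 1426 matched regions in the upstream class and replicate 2 kept 1350 of 1416.

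The summits on which the replicates differed most were named by the gap in rank percentile. At T24D5.4 the signal was 47.6 in replicate 1 and 2.65 in replicate 2, and at F01D5.1 it was 31.0 and 2.66 in replicates 1 and 2. The tropomyosin gene lev-11 had 35.8 in replicate 1 and 3.52 in replicate 2. In the other direction, ZK673.2 had 5.65 in replicate 1 and 58.3 in replicate 2, and a second, weak summit of the ABC transporter gene pgp-3, at 379 bp, had 7.93 and 18.5 in replicates 1 and 2. In all, 11 upstream summits differed by more than 50 percentile points.

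The 20 summits of highest signal reached from 332 to 692, and replicate 1 exceeded replicate 2 at all 20. At nhr-237, 617 bp upstream, the signal was 692, with 382 in replicate 1 and 306 in replicate 2. At daf-22, 311 bp upstream, it was 580.4, with 369 and 211 in replicates 1 and 2. At ugt-49, a UDP-glucuronosyltransferase gene, the summit lay 868 bp upstream and had 576 (399.9 in replicate 1 and 179 in replicate 2). The UDP-glucuronosyltransferases conjugate sugars to drugs and steroids, and other genes of oxidation and conjugation stood in the same group. They were the short-chain dehydrogenase gene dhs-9 (426, with 252 and 172 in replicates 1 and 2), gst-5 (381, with 227 and 155) and the aldehyde dehydrogenase gene alh-5 (354, with 199 and 152).

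Others of the 20 had diverse roles, and some are named only in the figure. The apyrase gene apy-1 had a signal of 530.2 and the Pumilio-family RNA-binding protein gene puf-9 had 483, at a summit that overlapped a noncoding RNA gene. The nucleotide sugar transporter gene nstp-2 had 416, the ribosomal protein gene rpl-35 had 391 and the methanethiol oxidase gene semo-1 had 385. Transcription regulators were nhr-135 (375), the AF10-like gene zfp-1 (382) and skn-1 (357, with 192 in replicate 1 and 167 in replicate 2), whose product is the Nrf-type factor of oxidative stress responses. The summits of skn-1, zfp-1 and osgn-1 (491) lay in introns of their own genes, upstream of an internal TSS, and 16 of the 20 lay over no gene. Of the 20, 3 held TGATAA (daf-22, osgn-1 and zfp-1), against 32.3% of all upstream summits.

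**Figure D2:**
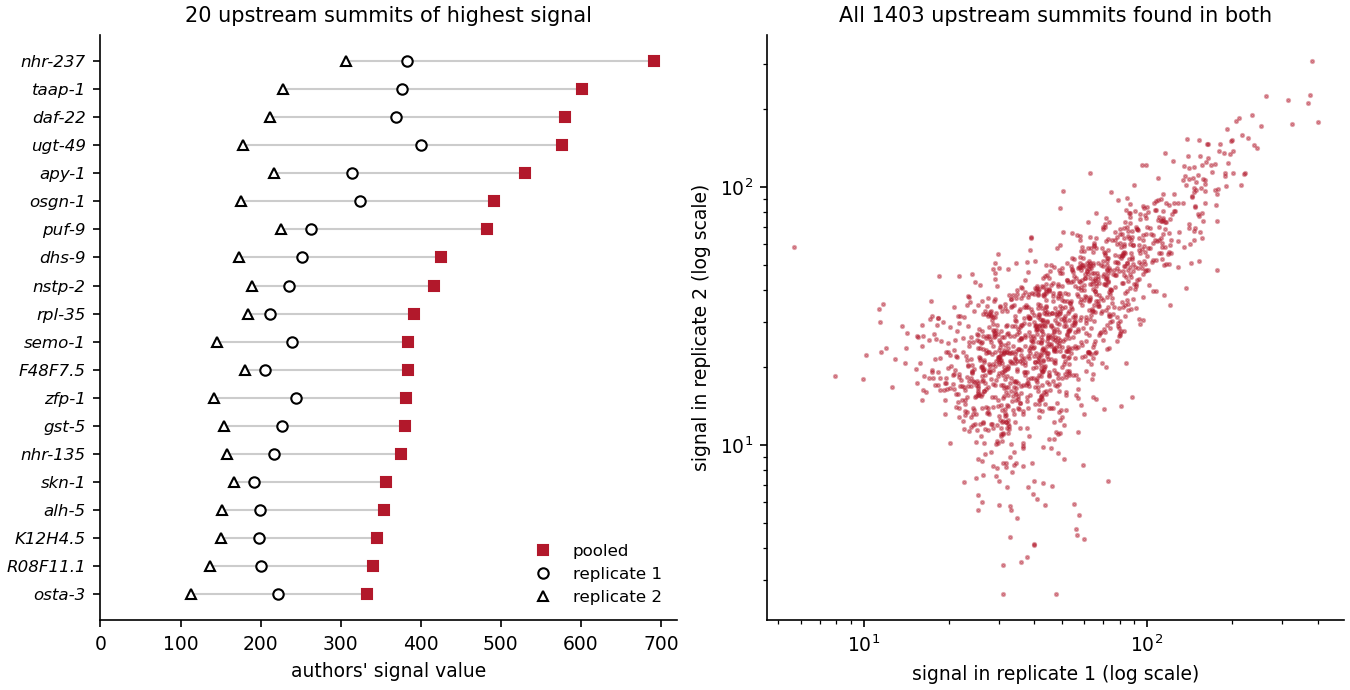
Left, the authors' signal value (horizontal axis) at the 20 upstream summits of highest signal, one gene a row, with squares for the pooled value and open symbols for each replicate. Right, signal in replicate 1 against replicate 2 on log axes for the 1403 upstream summits found in both; the points rise together, with a Spearman correlation of 0.704, and a few lie far below the rest in replicate 2.

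The values on both sides of each limit of the distance rule overlapped. Just inside the inner limit, the mitochondrial import gene tomm-20 had a signal of 102, C01B10.11 had 56.0 and sprr-2 had 50.2. Just outside, at 300 bp, C18B12.4 had 209, the thioredoxin reductase gene trxr-1 had 42.3 and cal-5 had 40.97. At the outer limit, Y32F6B.1 (53.9 at 1000 bp), the sodium/proton exchanger gene nhx-2 (79.3 at 999 bp) and C46C11.3 (53.7 at 998 bp) were kept, and nhr-66 (42.5 at 1001 bp), ZK470.2 (49.4 at 1002 bp) and F52D2.7 (54.4 at 1002 bp) were not.

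Most upstream summits lay in sequence between genes. Of the 1439, 985 (68.5%) overlapped no annotated gene, 231 (16.1%) lay in an intron of their own gene and 9 in its exons. Another 65 lay in an exon and 67 in an intron of a neighbouring protein-coding gene, and 82 overlapped a gene of another type, of which 54 were of the class ncRNA and 15 were tRNA genes. A TSS of the same gene lay farther upstream for 239 summits (16.6%), so these were both upstream of an internal start and inside the gene. Their median signal was 68.5, against 72.6 for the 1200 with no own TSS upstream, and TGATAA was in 38.1% (95% Wilson interval 32.2 to 44.4), against 31.2% (28.6 to 33.8). The next protein-coding gene upstream pointed away from the summit's gene for 552 summits and in the same direction for 754, and 133 lay within an overlapping gene. For the divergent pairs, no start of the next gene lay closer to the summit than 1000 bp by the rule itself. The median distance from the summit to that gene was 3340.5 bp.

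By chromosome, the X carried the most upstream summits for its length. It had 154 per Mb of sequence that meets the rule (157 in replicate 1 and 159 in replicate 2). Chromosomes II and III had 122 and 121 per Mb, chromosome I had 114, and chromosomes IV and V had 89.6 and 87.8. The X lay above every autosome in both replicate lists, where the autosomes ranged from 87.2 to 122 per Mb in replicate 1 and from 87.8 to 116 in replicate 2. Of all optimal summits on the X, 16.9% were upstream summits, against 15.2% to 18.2% on the autosomes, so the X was not set apart in that share. The median signal on the X was 72.7, against 67.5 to 76.2 on the autosomes.

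The GATA site was the most frequent of 16 motifs searched in windows of 50 bp to each side of the summit. TGATAA or its reverse complement was present in 465 upstream summits (32.3%, 95% Wilson interval 29.9 to 34.8). Windows of equal size 500 bp away from the gene held it in 10.6% and windows 500 bp toward the gene in 12.02%, and 9.81% of 256712 windows laid over all sequence that meets the rule held it. The share was 32.5% in the replicate 1 list and 29.8% in the replicate 2 list. Core summits had 36.5% (34.5 to 38.5) in the optimal set, 37.7% in replicate 1 and 33.5% in replicate 2, so the upstream share was lower by 4.16 percentage points in the optimal set, 5.18 in replicate 1 and 3.72 in replicate 2, and the intervals of the optimal set overlapped. All intervals here cover counting error only.

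The GATA share varied with distance. It was 44.8% (41.1 to 48.5) within 100 bp upstream of the TSS. Among the upstream steps of 100 bp it was lowest between 300 and 400 bp, at 26.1% (21.7 to 31.1). The highest share was 38.9% (31.9 to 46.5), between 800 and 900 bp. The steps between did not rise steadily, with 35.4% between 500 and 600 bp and 29.8% between 600 and 700 bp. Over wider zones it was 28.2% from 300 to 500 bp (24.6 to 32.1), 32.8% from 500 to 700 bp (28.1 to 37.8) and 36.4% from 700 to 1000 bp (32.4 to 40.6). The intervals of the first and the last of these zones did not overlap in the optimal set. In order of distance the 3 zones had shares of 29.03%, 31.6% and 36.7% in replicate 1 and of 27.4%, 28.9% and 33.2% in replicate 2, and in each replicate the intervals of the first and the last overlapped (25.3 to 33.01 and 32.7 to 40.9 in replicate 1). The order of signal with and without the site differed between replicates. The median was 73.5 with TGATAA and 71.1 without it, with 49.6 against 43.98 in replicate 1 and 27.2 against 30 in replicate 2, where the order turned. In core summits the medians were 83.7 with the site and 73.7 without, with 56.5 against 45.6 in replicate 1 and 29.67 against 29.55 in replicate 2.

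Sites were densest around the summit. Among the 465 windows with TGATAA, which reach 50 bp to each side by construction, the copy nearest the summit was within 10 bp of it in 150 (32.3%) and within 25 bp in 296 (63.7%), and the median distance was 19 bp. The density of sites was 4.76 per kb in the 20 bp starting at the summit, against between 1.04 and 1.70 per kb from 220 to 300 bp on the side of the gene. The copy nearest the summit read TGATAA on the gene's strand in 46.9% (42.4 to 51.4), so neither orientation prevailed. The bases around it were uneven: the base before TGATAA was C in 33.3% and A in 16.3%, and the base after it was G in 46.7% and T in 11.6%. The extended form CTGATAAG was in 93 upstream summits (6.46%), against 0.402% of all upstream windows and 7.69% of core summits.

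**Figure D3:**
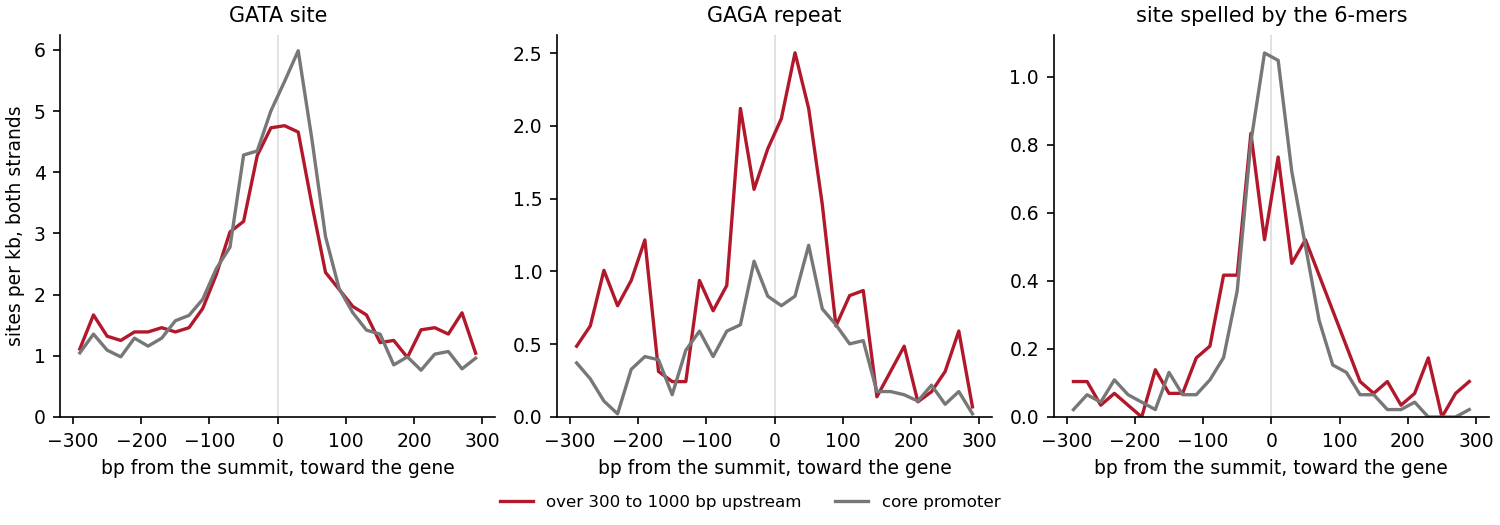
Sites per kb on both strands, in 20 bp steps around the summit (horizontal axis, bp, positive toward the gene), for upstream summits and core summits. GATA sites (left) were densest around the summit in both, at 4.76 per kb for upstream summits, the GAGA repeat (middle) was denser around upstream summits and the 9-mer GAGACGCAG (right) was densest around the summit in both; a long repeat counts once for each position it fills.

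Of the 16 motifs, the GA repeat had the largest fold over the flanks. GAGAGAGA was in 98 upstream summits (6.81%, 5.62 to 8.23), against 1.32% and 0.903% in the flanks away from and toward the gene and 0.745% of all upstream windows. The share was 6.17% in replicate 1 and 5.87% in replicate 2. Core summits had 4.28% (3.53 to 5.19), with 3.88% in replicate 1 and 4.95% in replicate 2, so upstream summits were higher by 2.53 percentage points in the optimal set, 2.29 in replicate 1 and 0.928 in replicate 2. Among upstream summits the repeat was in 5.75% from 300 to 500 bp, 7.84% from 500 to 700 bp and 7.24% from 700 to 1000 bp, with overlapping intervals. By signal, it was in 9.44% of the 360 highest and 5.83% of the 360 lowest, while TGATAA was in 30.6% of the highest and 30% of the lowest.

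The leading 6-mers, ranked by their share in the windows over their share in the flanks, fell into few families. ACGCAG led, in 10.5% of upstream summits and 2.22% of flanks. CTTATC, the reverse complement of GATAAG, was in 23.0%, against 5.39% of flanks, and GAGAGA was in 25.3%, against 6.05%. CGCAGA was in 10.6%, ACACAC in 14.6%, CGTCTC in 12.4%, AGACGC in 9.52%, AGAGAG in 22.2%, CGAGAG in 9.87% and AGAGGG in 7.51%, each 3.79 to 4.08 times its share in the flanks. Of these 6-mers, ACGCAG with both AGACGC on its left and the reverse complement of CGTCTC spells the 9-mer GAGACGCAG, which was searched after these were seen. It was in 78 upstream summits (5.42%, 4.36 to 6.71), against 0.764% and 0.625% of the flanks away and toward, 0.465% of all upstream windows and 7.78% of core summits. The nhr-237 window printed above holds it as CTGCGTCTC, in lower case.

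TGATAA was counted in the windows with and without each of the other families. Of the 78 summits with GAGACGCAG, 9 also held TGATAA (11.5%), against 33.5% of the 1361 without it. Of the 98 with GAGAGAGA, 17 held TGATAA (17.3%), against 33.4% of the other 1341. The 9-mer and GAGAGA, which can share bases, stood together in 42 of the 78 windows (53.8%), against 23.7% of the 1361 windows without the 9-mer, and a GAGAGA that shares no base with the 9-mer was in 27 (34.6%). The longer GAGAGAGA showed little difference, in 6 of the 78 windows (7.69%), against 6.76% of the 1361. TGATAA, the 6-mer GAGAGA and the 9-mer together covered 787 upstream summits (54.7%), against 57.3% of core summits. The 9-mer had a direction: apart from windows with both, it read CTGCGTCTC on the strand of the gene in 55 and GAGACGCAG in 21 (27.6%, 18.8 to 38.6), and in core summits GAGACGCAG had 65 of 177 (36.7%). GAGAGAGA read as TCTCTCTC on the gene's strand in 61 and as GAGAGAGA in 35.

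The nuclear receptor half-site AGGTCA was in 63 upstream summits (4.38%, 3.44 to 5.56), against 3.27% and 2.22% of the flanks away and toward, 2.53% of all upstream windows and 4.63% of core summits. The share was 3.58% in replicate 1 and 4.13% in replicate 2. The variant AGTTCA was in 5.07%, which was below both flanks (7.23% and 7.92%). The HNF4-type half-site AAGTCCA was in 0.486%, against 0.556% and 0.764% in the flanks. Sites for other factors also lay above the flanks: the E-box CACGTG was in 4.93% (flanks 1.67% and 2.29%), the GC box CCGCCC in 3.61% (1.04% and 1.53%) and the forkhead site GTAAACA in 3.75% (1.598% and 1.25%). Below the flanks were the TATA box TATAAA (7.16%, flanks 14.2% and 11.3%), the homeobox site TAATTA (2.36%, flanks 5.70% and 5.14%) and TTTCAG, the form of splice acceptors (5.84%, flanks 16.96% and 19.8%). In all, 702 upstream summits (48.8%) held at least 1 of the 6 motifs marked above and 737 held none.

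**Figure D4:**
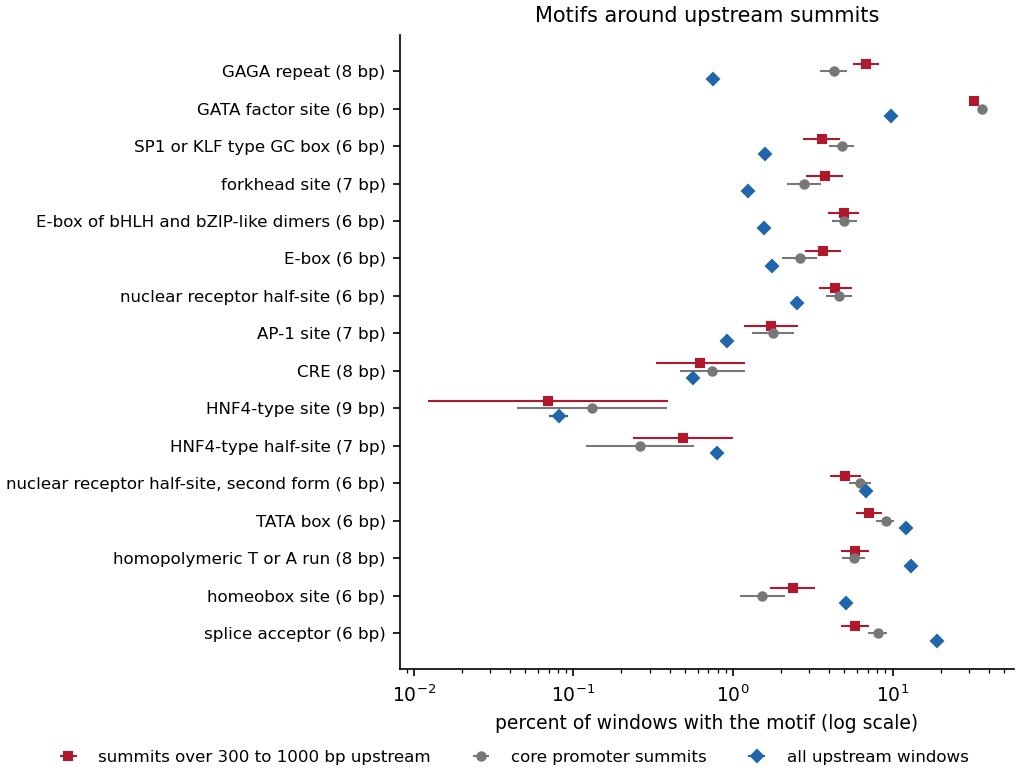
Percent of windows (50 bp to each side of the centre) with each of 16 motifs (horizontal log axis), with 95% Wilson intervals, for upstream summits, core summits and windows over all upstream sequence that meets the rule. The GAGA repeat stood at 6.81% around upstream summits and 0.745% in all upstream windows, and the splice acceptor form at 5.84% and 19.1%.

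The windows were richer in G and C than their surroundings. Mean GC content was 41.3% in upstream summits and 40.9% in core summits, against 34.7% in all upstream windows. Around upstream summits it was 42.7% in the 20 bp starting at the summit and 34.3% in the 20 bp that end 500 bp away from the gene. Motif shares in flanks of lower GC content were therefore measured on sequence of another composition, and the part of composition in the differences was not tested.

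The genes with an upstream summit were set against 29 lists of genes by symbol. All protein-coding genes had such a summit in 6.8%, and 20 lists lay above that share and 9 below, with 19 above and 10 below in each replicate's own list. Some lay close to it, as did the collagens (7.37%), innate immunity genes (7.21%), homeobox factors (6.32%) and proteasome genes (6.06%). The cytochromes P450, glutathione S-transferases, gut proteases and collagens each changed side in 1 replicate, so these counts include lists that the share does not set apart. The lists together held 290 of the 1359 genes (21.3%). Names follow whole symbol families, so the name of a list need not hold for each of its genes, and the members are not independent of one another.

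Of the 5 lists of transcription factors, 4 stood above the share of all genes, the GATA factors with only 2 of 12 genes. The homeobox factors (6.32%) stood close to the share of all genes (6.8%). Of 274 nuclear hormone receptor genes, 39 (14.2%) had an upstream summit, with 38 in the replicate 1 list and 44 in the replicate 2 list. Besides nhr-237 and nhr-135, with 217 in replicate 1 and 158 in replicate 2, they included nhr-49, a regulator of fat metabolism, which had 155 at 388 bp (91.3 and 70.2 in replicates 1 and 2) and was chosen after its value was seen. The median signal of the highest upstream summit was 105 for these genes, against 73.3 over all 1359 genes. Of the 39, 9 held TGATAA and 8 held GAGACGCAG (20.5%), against 75 of all 1359 (5.52%). The 9-mer was in 7 of the 69 receptor genes with a core summit (10.1%), against 7.78% of all core summits, a share of summits and not of genes. It was itself spelled from the leading 6-mers of the upstream windows, and no test was run on these shares. The factors of the bHLH, bZIP and ETS families had a summit at 15 of 69 genes (21.7%), with skn-1 and the C/EBP gene cebp-1 highest (254, with 149 in replicate 1 and 104 in replicate 2). Forkhead, zinc finger and related factors had 16 of 93 (17.2%), led by fkh-7 (327) and ztf-7 (248). GATA factors had 2 of 12, which were elt-2, the main GATA factor of the intestine (213 at 421 bp, with 141 in replicate 1 and 72.1 in replicate 2), and egl-27 (113). The elt-2 summit itself held TGATAA. Homeobox factors had 6 of 95 (6.32%).

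Genes of fat and xenobiotic metabolism had summits in both positions, and no test was run between these lists. Fatty acid and lipid genes had an upstream summit at 21 of 102 (20.6%) and a core summit at 38 (37.3%). The highest were daf-22 and acs-2, whose product activates fatty acids with coenzyme A, (320.5 at 712 bp, with 193 in replicate 1 and 123.4 in replicate 2), and 13 of the 21 held TGATAA (61.9%), against 32.4% of all 1359 genes. UDP-glucuronosyltransferase genes had 11 of 67 upstream (16.4%) and 38 in the core (56.7%), led by ugt-49 and ugt-21 (215.3). Cytochrome P450 genes, whose products oxidise foreign compounds, had 6 of 74 upstream (8.11%) and 35 in the core (47.3%), led by cyp-29A4 (154) and cyp-32A1 (66.2). The upstream count was 6 in the replicate 1 list and 2 in the replicate 2 list (2.70%), so the share was below that of all genes in replicate 2. Glutathione S-transferases had 4 of 49 upstream and 16 in the core, with gst-27 (104) next to gst-5, and had 4 in replicate 1 and 3 in replicate 2 (6.12%, below all genes). Dehydrogenases and flavin monooxygenases had 9 of 48 upstream (18.8%) and 20 in the core (41.7%), with 11 upstream in the replicate 1 list and 7 in the replicate 2 list. ABC and other solute transporters had 21 of 120 upstream (17.5%) and 25 in the core (20.8%), led by pgp-3, at 580 bp (277, with 169.8 in replicate 1 and 114 in replicate 2), and wht-1 (124).

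Upstream summits at genes of the ribosome, the vacuolar ATPase and the respiratory chain lacked the GATA site. Cytosolic ribosomal protein genes had 11 of 78 upstream (14.1%), against 8 in the core (10.3%), led by rpl-35 (391, with 212 in replicate 1 and 184 in replicate 2) and rpl-11.2 (173), and 0 of the 11 held TGATAA. Their summits lay at a median of 355 bp, against 584 bp over all genes. Vacuolar ATPase genes had 4 of 20, led by vha-12 (224, with 152 in replicate 1 and no region over the summit in replicate 2) and vha-13 (169). Respiratory chain and ATP synthase genes had 6 of 67 (8.96%), led by cox-5A (218) and cox-4 (185), at a median of 351 bp. None of these 10 summits held TGATAA either, against 32.4% over all genes with an upstream summit. Low counts were not particular to these lists. TGATAA was in 0 of 4 glutathione S-transferase genes, 1 of 9 dehydrogenase and flavin monooxygenase genes and 0 of 2 proteasome genes. Chaperones had 7 of 59, with dnj-20 (213) and the Hsc70 gene hsp-1 (195) highest, and proteasome genes had 2 of 33, pas-5 (64.4) and rpn-13 (38.7). Muscle structure genes had 7 of 51 (13.7%; 5 in replicate 1 and 10 in replicate 2), against 4 in the core, led by the kindlin gene unc-112 (180.4) and the actin gene act-4 (85.7).

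Signalling genes lay above the share of all genes as well. The TGF-beta, Wnt and Notch list had 13 of 65 (20%), led by the Schnurri-like gene sma-9 (199, with 50.6 in replicate 1 and 95.9 in replicate 2) and the beta-catenin gene wrm-1 (98.3). Insulin signalling had 7 of 52 (13.5%), against 3 in the core, with the kinase gene akt-2 (264) and the insulin-like peptide gene ins-39 (177) highest. Heterochronic regulators, which time larval cell fates, had 4 of 11, with lin-28 (83.3) and lin-14 (55.8, with no region over the summit in replicate 1 and 38.1 in replicate 2). Shares of genes take no account of how much sequence each gene offers. Per Mb of sequence that meets the rule, the TGF-beta, Wnt and Notch list had 239 upstream summits. Insulin signalling had 178 per Mb and heterochronic regulators had 353, against 112.1 over all such sequence.

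Large families of sensory and neuronal genes had few upstream summits, and few core summits as well. Core summits were at 5 chemoreceptor genes (0.382%), 3 neuropeptide genes (2.83%) and 18 ion channel and receptor genes (6.36%), against 11.04% of all genes. Chemoreceptors had 18 of 1309 (1.38%), although srz-62 reached 297 (188 in replicate 1 and 113 in replicate 2), and srr-4 had 263. Neuropeptide genes had 1 of 106, nlp-8 (79.6), histone genes had 0 of 72, and ion channel and receptor genes had 12 of 283 (4.24%), led by the innexin gene inx-13 (299.5). C-type lectins had 8 of 240 (3.33%), against 32 in the core (13.3%), with clec-174 (160.3) and clec-172 (135) highest. F-box and MATH genes had 18 of 395 (4.56%), led by fbxc-29 (243) and fbxb-58 (203), and 13 of the 18 held TGATAA (72.2%). Gut proteases and lysozymes had 4 of 72 upstream (4 in replicate 1 and 6 in replicate 2, where the share of 8.33% was above all genes), against 22 in the core, and all 4 held TGATAA, including asp-1 (89.1) and lys-4 (87.5). Innate immunity genes had 8 of 111 (7.21%), led by dod-19 (86.1) and dod-23 (70.0), and the collagen list had 14 of 190 (7.37%, with 12 in replicate 1, below all genes, and 13 in replicate 2). The highest in the collagen list, dpy-23 (206) and dpy-27 (170.4), share its symbol but encode an adaptor subunit and a dosage compensation protein, while homeobox genes were led by ceh-20 (121) and hmbx-1 (77.5).

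**Figure D5:**
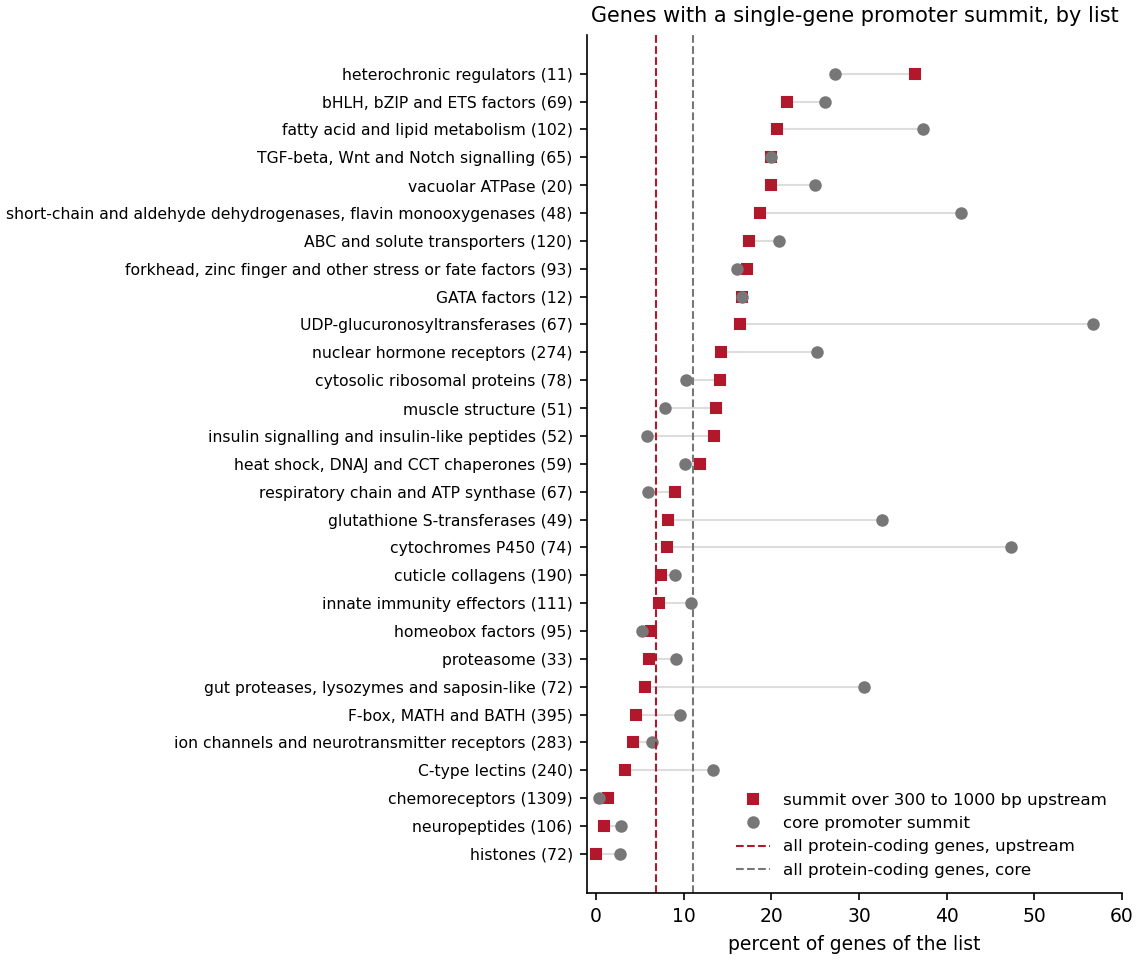
Percent of the genes of each of 29 lists (rows, with the number of genes) that had an upstream summit or a core summit, with dashed lines for all protein-coding genes at 6.8% and 11.04%. UDP-glucuronosyltransferases stood at 16.4% upstream and 56.7% in the core, while ribosomal protein genes stood at 14.1% and 10.3%.

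Below the optimal set, 2879 more regions of the pooled list met the same positional rule. Of these, 290 shared the maximal −log10 q value of the list, 4.32. TGATAA was in 32.3% of the upstream summits of the optimal set, against 26.6% of the 290 and 16.1% of the 2879. A region width of exactly 350 bp with the summit at its middle, found in 989 upstream summits (68.7%), went with lower signal, with a median of 59.0, against 142 for the 450 of other widths, while the TGATAA share was 31.3% and 34.4%.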

How the data were processed

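ChIP-seq regions of eGFP-NHR-28 from 2 replicates were analysed as deposited lists. Per the deposited file descriptions, the authors called regions against a control alignment on ce11 for each replicate and for pooled alignments, and derived the optimal set by the irreproducible discovery rate. No source used here gives the caller, its version or the threshold. The signal values are the authors' own, and depth is unknown. The optimal set held 8745 regions. The deposited −log10 q value was at its ceiling of 4.32 in every optimal region, so regions were ranked by signal. Lists on ce10 were not used here.

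Each upstream summit took, from each replicate list, the value of the strongest region over it. Genes came from Ensembl release 115 and sequence from RefSeq (both WBcel235), read with Python 3.11.15, pandas 2.3.3 and numpy 2.4.6. Coordinates are 1-based. Motif searches covered both strands and 50 bp to each side of the summit. Shares carry Wilson intervals. Counting was tested on simulated summits. With 1 group, no test was run; replicates are set side by side, and regions are not replicates.

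Genes were named from set groups: the 20 highest upstream summits, the highest per 100 bp, the 2 highest per list and genes with 3 or more summits. Further groups were those at the limits, 5 per direction of replicate difference and 10 6-mers. Not every gene of each group is named in the text. Sequences were taken from the highest summit with and without TGATAA, with each of 4 other motifs and between 900 and 1000 bp. For the sequences 1 chromosome was left out by rule. Others are marked. The summits, lists, motifs and rules were chosen with earlier results of these data known. Alternatives changed the list, the distance rule, the annotation, the windows and the flanks.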

Additional observations from a re-analysis of the deposited data

How the results depend on the processing

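Of 95 alternative values, 74 moved by less than the spread between replicates or, for counts, less than 1.5 times. That spread is the standard deviation of only 2 values, with each replicate left out in turn. Those values are also among the alternatives, so the tally describes and does not test stability. The number of upstream summits was 1426 to 1430 when either replicate was left out, and the genes with one were 1338 to 1346, where the equal length of the lists helps to fix these counts. The replicate lists shared 1054 of these genes (78.8% of those of replicate 1 and 78.3% of those of replicate 2), and 1037 of the 1359 genes had an upstream summit in both. With only the regions above the median signal there were 704 summits in 692 genes, and with a lower limit of 500 bp there were 882 in 840 genes, fewer by construction. That limit also moved the median distance to 746.5 bp and the GATA share to 34.9%, and the demand for no other TSS within 2000 bp up and 500 bp down moved the distance to 600.5 bp.

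Leaving out replicates in turn gave a signal ratio of upstream to core summits of 0.927 to 0.981, GATA shares of 29.8% to 32.5%, 94.5% to 96.4% found in the other replicate and a density ratio to the nearest 300 bp of 0.339 to 0.348. The regions above the median gave a signal ratio of 0.973, a GATA fold over flanks of 3.18 and a density ratio of 0.298. The density ratio was also 0.352 over all pooled regions at the maximal −log10 q, 0.303 with the outermost TSS of each gene and 0.294 with the limit of 500 bp. The GATA share was 18.6% within 25 bp of the summit and 44.3% within 100 bp, where its fold over flanks was 2.13. A replicate region within 100 bp of the summit gave 99.03% in both. The density ratio was not run for 3 settings that change which sequence meets the rule.

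After the data were seen, the closest TSS was also taken among windows over the summit (1483 summits), and summits with an own TSS upstream were dropped (1200 left). No paired analysis was possible because there was 1 group. Depth is unknown, so a place without a summit is not shown to be unbound.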

Other observations

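Several upstream summits of high signal lay inside a neighbouring gene. The highest of these, 947 bp upstream of Y71F9B.1 and in an intron of sop-3, had a signal of 324, with 181 in replicate 1 and 146 in replicate 2. One 887 bp upstream of ant-1.2, a mitochondrial adenine nucleotide transporter gene, lay in an intron of the fatty acid binding protein gene lbp-5 and had 248, with 145 in replicate 1 and 108 in replicate 2. These genes were named after their values were seen. For such summits the gene given here is the one whose TSS the positional rule points to, and the data do not tell which gene the binding concerns.

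The 15 upstream summits over tRNA genes had a median signal of 61.6 and reached no more than 92.5, and TGATAA was in 1 of them. The 54 over genes of the class ncRNA had a median of 72.1, with TGATAA in 13.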
